A study of Bos taurus with 3 samples.

Results

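bta-miR-375 (miR-375 below, identifier MIMAT0009303, hairpin bta-mir-375) was followed through the small RNA libraries of purified large dense-core vesicles. It was selected by name, and 1 row of the count table carried that name, so the gene is 1 of 793 mature miRNAs in the table. No row for another arm of the hairpin or a further copy was found. The vesicles came from bovine chromaffin cells of the adrenal medulla, taken from cows of a local slaughterhouse. The series held 3 libraries, labelled technical replicates 1 and 2 (T1 and T2 below) and biological replicate 1 (B1), with no treatment, genotype or age given. The labels did not state which step the technical pair repeated, how many animals were pooled, or whether the biological replicate came from other animals. The p-values below rest on the noise of the technical pair, pooled over miRNAs, and measure no spread between animals. The technical pair was averaged and counted as 1 preparation, which gives n = 2 preparations.

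Chromaffin cells store catecholamines and peptides in large dense-core vesicles and release them by calcium-triggered exocytosis. miRNAs are short RNAs that guide Argonaute proteins to matching sites in messenger RNAs, mainly through the bases of their seed, and so lower the output of those messages. miR-375 is best known from pancreatic islets, where it restrains insulin secretion, with myotrophin (Mtpn) and Pdk1 among its known targets, and where it is needed for a normal number of beta and alpha cells. It is also known from pituitary and gut endocrine cells and from some epithelia.

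In the RefSeq annotation of assembly ARS-UCD2.0 the gene MIR375 lay between CRYBA2, which encodes a lens crystallin, and CFAP65, which encodes a protein of cilia and flagella. The deposited files name another build, so only the order of genes was used. The nearest annotated miRNA gene on one side was MIR26B, 19 genes away, and on the other MIR153-1, 18 genes away. miR-26b was read at 2284 and 2525 CPM (counts scaled to a common library total) in T1 and T2 and at 2180 CPM in B1. miR-153, which has 2 hairpins in the table, was read at 151, 129 and 114 CPM in the same order. Both were thus far below miR-375 in every library, and neither has its order of levels across the libraries.

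Each library was led by miR-375. T1 held 2115519 miR-375 counts of 5546771 miRNA counts, T2 held 2238589 of 6251664, and B1 held 2794731 of 6708654. These counts equal 381396, 358079 and 416586 CPM. As a share of miRNA counts, miR-375 had 38.1%, 35.8% and 41.7%, with a mean of 39.3% ± 3.31 (SD, n = 2). B1 was highest, above both technical libraries, and T2 was lowest. The log2 ratio of the shares was 0.09 between T1 and T2, 0.13 between B1 and T1 and 0.22 between B1 and T2, so T1 lay little closer to T2 than to B1. Exact Clopper-Pearson 95% intervals of the 3 shares were 38.10 to 38.18%, 35.77 to 35.85% and 41.62 to 41.70%, so depth does not limit the value. The labels mention no molecular identifiers, so such intervals hold counting error alone. In a bulk preparation, more vesicles of one kind and more RNA per vesicle cannot be told apart, and no library of whole cells was analysed here, so the values give no enrichment over the cell.

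**Figure D1:**
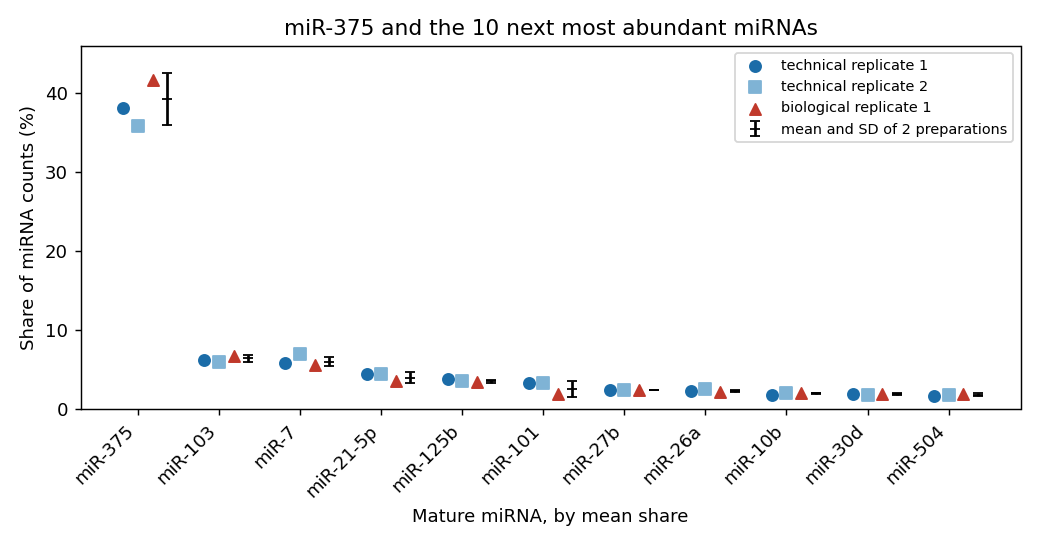
Share of miRNA counts (%, vertical axis) of miR-375 and the 10 next most abundant miRNAs in the 3 libraries, with the mean and SD over 2 preparations as black bars. miR-375 lies between 35.8% and 41.7%, and no other miRNA passes 7.03%.

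The size of this share depends on how hairpin copies are counted. miR-375 has 1 hairpin row, whereas 73 of the 793 mature miRNAs have several rows, and abundant ones among them (miR-103, miR-7, miR-125b, miR-101 and miR-26a) appear once for each hairpin. With each mature miRNA name counted once, by its highest row, the mean share is the 39.3% above. Names with identical counts stay separate, such as miR-199a-3p and miR-199c, or miR-129 and miR-129-5p. They are also counted separately in the sets of abundant miRNAs below. In the CPM values of the authors, where the total runs over all rows, miR-375 had 288587, 266706 and 319642 CPM in T1, T2 and B1. Those values are a mean share of 29.9%. Where the rows of a miRNA repeat the same reads, that total counts those reads more than once. The MIR153-1 row of miR-153 had 835, 804 and 767 counts in T1, T2 and B1, beside 836, 805 and 768 in the row kept. Not all rows were so alike, since the MIR2284Y-5 row of miR-2284y had 93, 144 and 125 beside 497, 645 and 614. The log2 values of the authors were 18.14, 18.02 and 18.29, and they rank the 3 libraries in the same order.

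The next most abundant miRNA stood far below. In T1 and B1 it was miR-103, a miRNA of broad expression, and in T2 it was miR-7, which is known from endocrine and neural cells. miR-375 had 6.10, 5.09 and 6.12 counts for each count of that miRNA in T1, T2 and B1, a mean ratio of 5.86 ± 0.372 (SD, n = 2). T1 and T2 were further apart in this ratio than its SD over preparations, and the second miRNA was not the same. With miR-7 as denominator in both, the ratio was 6.44 in T1 and 5.09 in T2. With miR-103 in both, it was 6.10 and 5.96. To exceed the counts of miR-375, the next 13 miRNAs had to be summed in T1, the next 11 in T2 and the next 18 in B1. Of the counts of the 10 leading miRNAs, miR-375 held 54.0%, 51.6% and 57.9%.

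**Figure D2:**
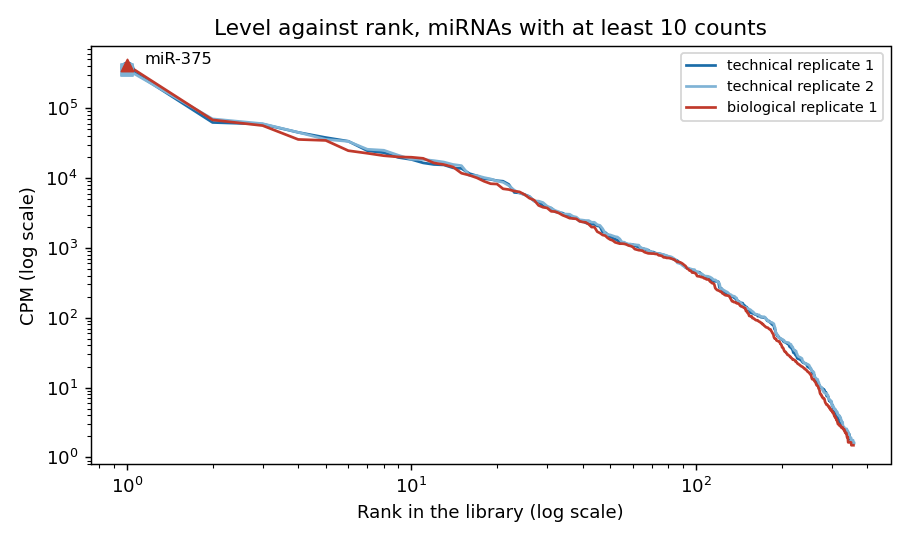
Level (CPM, log scale) against rank within the library (log scale) for miRNAs with at least 10 counts, 1 line per library, with rank 1 marked. All 3 lines drop steeply after miR-375, to between 62480 and 70296 CPM at the second rank.

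Set against single miRNAs, where the library total drops out, the level of miR-375 moved by different amounts. Against miR-103 the ratio was 6.10 and 5.96 in T1 and T2 and 6.12 in B1, so the pair kept nearly the same proportion in every library. Against miR-7, the other leading endocrine miRNA, it was 6.44, 5.09 and 7.38, and the technical pair was further apart than T1 was from B1. Against miR-21-5p, a miRNA abundant in many cell types, the ratio was 8.46, 7.94 and 11.7. Against miR-101 it was 11.3, 10.7 and 21.8, the widest spread of the 10, and miR-101 itself was lower in B1 (edgeR quasi-likelihood test, log2 fold change of -0.63 ± 0.14 SE, adjusted p = 3.2e-05). The remaining ratios, against miR-125b, miR-26a, miR-27b, miR-30d, miR-10b and miR-504, lay between 10.01 and 23.1. For miR-10b and miR-504 T1 had the highest ratio, not B1.

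**Figure D3:**
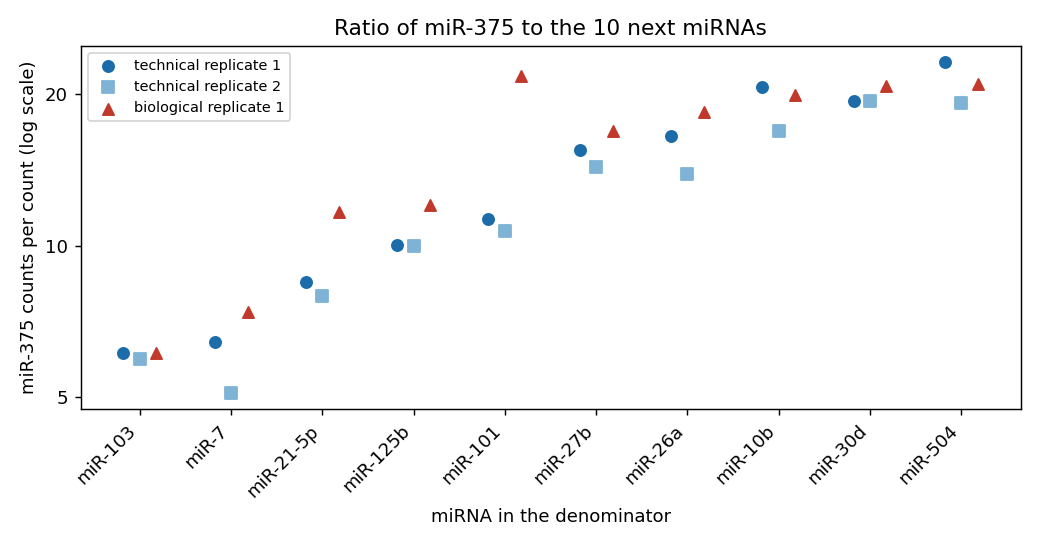
Counts of miR-375 per count of each of the 10 next miRNAs (log scale), 1 point per library. The ratio to miR-103 is nearly level across libraries (5.96 to 6.12), and that to miR-101 runs from 10.7 to 21.8.

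Across the 61 other miRNAs averaging 1000 CPM or more, the ratio of miR-375 to the other miRNA was higher in B1 than in both technical libraries for 44, lower than in both for 9 and in between for 8. The 9 were miR-25, miR-151-3p, let-7a-5p, miR-128, miR-320a, miR-92a, miR-218, miR-493 and miR-95, named here after their values were seen. The technical pair also differed in 1 direction, since the ratio was higher in T1 than in T2 for 57 of the 61. Relative to the geometric mean of these 61 miRNAs, miR-375 stood 6.39 and 6.24 log2 units higher in T1 and T2 and 6.61 log2 units higher in B1. The order of the 3 libraries was therefore that of the shares.

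The evenness of each library, and the CPM of its other miRNAs, depend on the share of miR-375. The effective number of miRNAs (the inverse Simpson index, which is the number of equally abundant miRNAs that would give the same evenness) was 6.19 in T1, 6.86 in T2 and 5.31 in B1. With miR-375 taken out it was 23.8, 23.5 and 23.1. The 3 libraries thus lay closer together in evenness without miR-375. With miR-375 out of the total, the CPM of every other miRNA is 1.62, 1.56 and 1.71 times higher in T1, T2 and B1, and the number of these others at 1000 CPM or more goes from 63, 62 and 59 to 86, 84 and 89. Since these factors differ, the log2 ratio of B1 to the technical mean moves by 0.11 for all others. Of 166 other miRNAs averaging 100 CPM or more, 64 were higher in CPM in B1 with miR-375 in the total and 89 without it. The 25 that changed direction are those whose log2 ratio lay within that shift of 0, so the count follows from the shift itself.

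Between the preparations, miR-375 had a positive difference that did not pass the test. In edgeR's quasi-likelihood test with TMM scaling, which sets libraries on the scale of their typical miRNA and not of their total, the log2 fold change of B1 against the technical pair was 0.35 ± 0.23 (SE), a fold of 1.28, with a Benjamini-Hochberg adjusted p of 0.23 over 367 miRNAs. In that test 139 of the 367 (37.9%) passed an adjusted p of 0.05, 65 of them higher and 74 lower in B1. Of the 367, 67 had a more positive log2 fold change than miR-375. In CPM by library totals, not TMM, the log2 ratio of miR-375 between T1 and T2 was compared with those 61 other miRNAs averaging 1000 CPM or more. It was larger in size than that of 34 and smaller than that of 27, near the middle. With its sign kept, it was 0.09 against a median of -0.05, above 57 of the others and below 4. Between T1 and T2, miR-375 was thus near the top of the abundant miRNAs in direction. For B1 against the technical mean, its log2 ratio was 0.17, above 48 of the others and below 13. In size that ratio was larger than that of 28 and smaller than that of 33.

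The standard error of miR-375 was the largest among those 62 abundant miRNAs, 0.23 against a median of 0.099. The SE ran with level, since the next most abundant, miR-103, miR-7 and miR-21-5p, had 0.15, 0.15 and 0.14. With noise pooled over miRNAs, as described below, this SE does not measure the spread of miR-375 itself. At lower levels, miRNAs with the same fold passed the test. miR-484, at 600, 552 and 652 CPM in T1, T2 and B1, had a log2 fold change of 0.36 ± 0.10 (SE, edgeR, adjusted p = 0.0010). The call on miR-375 also changed with the tool. DESeq2's Wald test gave a log2 fold change of 0.34 ± 0.11 (SE, adjusted p = 0.0055) in a test that called 29.9% of the miRNAs with an adjusted p, and edgeR without a filter on counts gave 0.32 ± 0.12 (SE, adjusted p = 0.028), where 25.9% were called. With library totals in place of TMM the log2 fold change of miR-375 was 0.17, because that scaling moves the median of all 367 from 0.01 to -0.17, and 24 miRNAs (6.54%) were then higher and 86 (23.4%) lower. The distance of miR-375 from the median of the miRNAs fitted was 0.34 under both scalings. The test has 1 residual degree of freedom, taken from the technical pair alone, and edgeR estimated the prior degrees of freedom as infinite. Its p-values therefore treat the noise of the technical pair, pooled over miRNAs, as known without error, and assume that the lone biological library varies as that pair does. They serve as a threshold and measure no spread between animals.

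**Figure D4:**
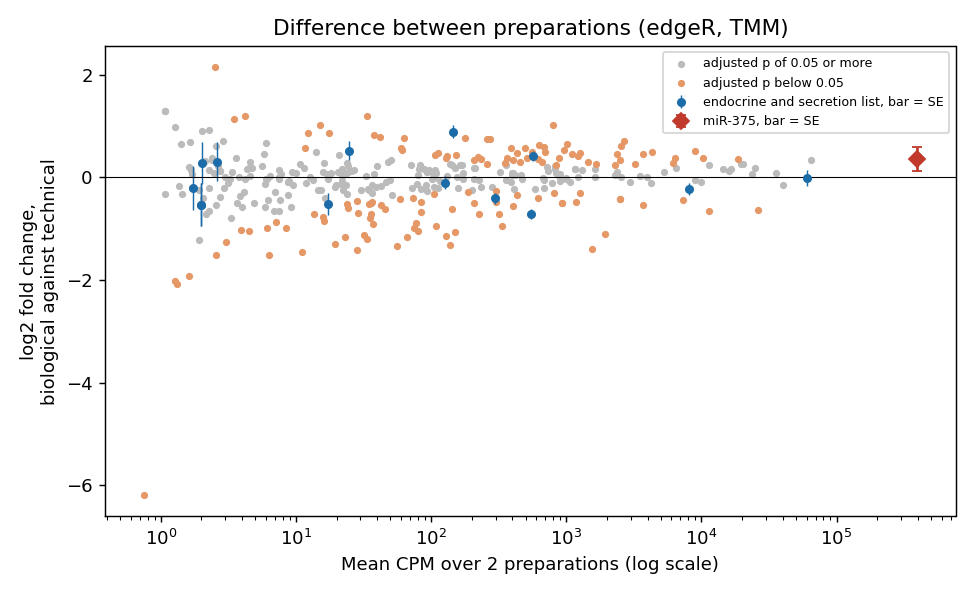
Difference between preparations (log2 fold change, vertical axis) against mean level (CPM, log scale) for 367 miRNAs, with miR-375 as a red diamond and tested members of the endocrine and secretion list in blue, bars giving SE. miR-375 stands alone at the right edge, at 0.35 with an SE of 0.23.

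**Figure D5:**
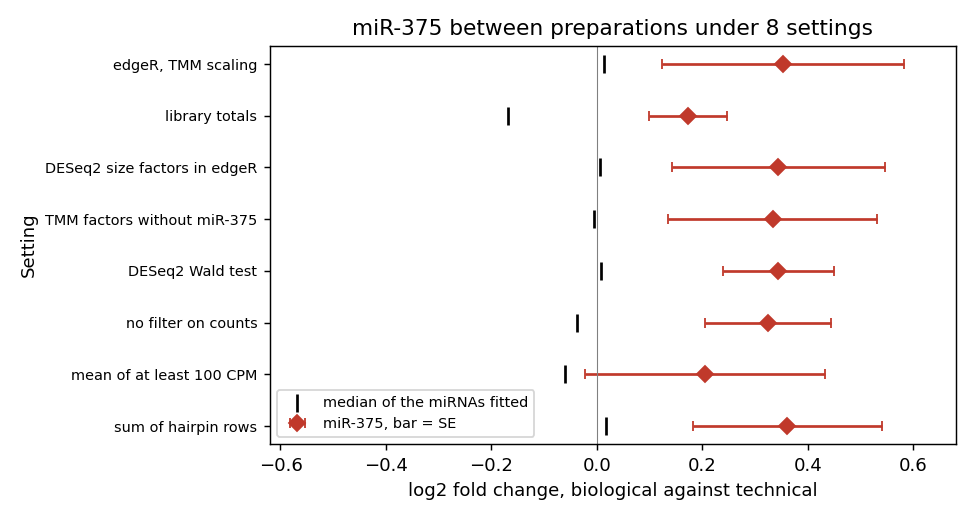
The log2 fold change of miR-375 with its SE (red) and the median of all miRNAs fitted (black ticks) under 8 settings. miR-375 lies to the right of the median in each, by 0.27 to 0.36.

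The miRNAs whose levels across the 3 libraries ran most like those of miR-375 were miR-484, miR-103, miR-423-3p, miR-32 and miR-1307. Likeness was the Euclidean distance between centred log2(CPM + 1) values over the 3 libraries, and 166 other miRNAs averaging at least 100 CPM were compared. It was 0.020 for miR-484, 0.030 for miR-103, 0.034 for miR-423-3p, 0.062 for miR-32 and 0.064 for miR-1307, against a median of 0.28. With 3 points, of which 2 are a technical pair, such a likeness is only a description of these libraries. Their fold changes between the preparations are fixed by this choice and are no separate result.

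Among miRNAs known from islets and other endocrine cells or from the control of secretion, miR-375 and miR-7 were far ahead of the rest. That list of 20 names held 21 mature miRNAs, of which 19 had a count and 15 were tested. Its members took 45.2%, 43.9% and 48.2% of the counts in T1, T2 and B1, and miR-375 made up 84.4%, 81.5% and 86.5% of that. Without miR-375 the list held 7.07%, 8.13% and 6.50%, lowest in B1. Counts of miR-375 stay in the total of these shares, so they fall where its share rises. Most of this remainder was miR-7. With miR-375 out of the total, miR-7 had 9.57%, 10.95% and 9.67% in T1, T2 and B1, lowest in T1. In the edgeR test 3 members were higher in B1, 3 were lower and 9 did not pass, against 17.7% higher and 20.2% lower among all 367, so the list's counts lie near the background. The median log2 fold change of the tested members was -0.11, against 0.01 for all.

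miR-7 was read at 59224 and 70296 CPM in T1 and T2 and at 56414 CPM in B1, with a log2 fold change of -0.02 ± 0.15 (SE, edgeR, adjusted p = 0.95). Its highest library was thus T2, where miR-375 was lowest. miR-29a, known to target syntaxin 1A in beta cells, had 9570, 9054 and 7015 CPM and did not pass (-0.23, adjusted p = 0.087). With library totals miR-29a passed and miR-9-5p and miR-200c did not. The related miR-29c and miR-29b fell by 0.71 and 0.41 on the log2 scale, and since members of this family are closely alike in sequence, the split of reads between them is uncertain. Both arms of miR-9, which in insulin-secreting cells lowers Onecut2 and thereby raises granuphilin, an inhibitor of vesicle release, rose by 0.41 (miR-9-5p) and 0.89 (miR-9-3p). For each count of miR-9-5p there were 778, 652 and 685 counts of miR-375. miR-153, a miRNA of neurons and neuroendocrine cells, had a log2 fold change of -0.11 and did not pass.

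The other islet miRNAs were scarce or near the floor of detection. miR-204, abundant in beta cells, had 110, 142 and 88 counts in T1, T2 and B1 (log2 fold change of -0.52, edgeR, adjusted p = 0.044), and miR-200c had 125, 133 and 185 counts (0.52, adjusted p = 0.015). Neither passed in DESeq2 or with TMM factors computed without miR-375. miR-182, miR-124a, miR-124b, miR-141 and miR-200b had between 8 and 21 counts and did not pass, and miR-124a and miR-124b had identical counts. miR-184, a beta-cell miRNA, had 5, 3 and 3 counts. miR-183, miR-200a and miR-211 had at most 3 counts in a library, and miR-96 and miR-429 had 0 counts in every library, which allows up to 3 counts, or 0.541, 0.480 and 0.447 CPM. The miR-200 and miR-183 groups, which accompany miR-375 in islets and epithelia, thus reached at most 27.6 CPM in the vesicle preparations (miR-200c in B1). No islet or epithelial library was analysed, so their ratio to miR-375 was not compared with those tissues.

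Lists of miRNAs known from other cells are given here beside miR-375, and their part in its result was not tested. Among all 367 miRNAs of the edgeR fit, 17.7% were called higher and 20.2% lower in B1 (6.54% and 23.4% with library totals), and counts of called members are to be read against these shares. The smooth muscle and fibroblast list (6 of 6 members with counts) summed to 16827 and 18866 CPM in T1 and T2 and 10249 CPM in B1, and 5 of its 6 members were called lower there, above the 20.2% of all miRNAs. The 2 endothelial miRNAs, the arms of miR-126, summed to 1820, 1888 and 1130 CPM, and both were called lower. Of the 6 epithelial members, which bear on miR-375 since epithelia can express it, 4 had counts, miR-205 and miR-429 were at 0, and the sum was 28.8, 24.2 and 32.2 CPM. Of its 3 tested members 1 was called higher in B1, which is the miR-200c described above, and with library totals it did not pass. The 5 leukocyte members summed to 78.4, 75.5 and 50.7 CPM, and 1 of 4 tested was called lower, which is near the background. The 3 erythrocyte members summed to 898, 837 and 1097 CPM, nearly all of it miR-486 (873, 816 and 1080 CPM), the member called higher. The other members went the other way and were lowest in B1. miR-451 had 23.6, 20.2 and 16.8 CPM (log2 fold change of -0.19), and miR-144 had 5, 6 and 4 counts. In the striated muscle list 5 of 7 members had counts, with sums of 676, 655 and 883 CPM, and 2 of 4 tested were called higher. The tested members not called, miR-133a and miR-133b, had log2 fold changes of 0.11 and -0.32. For hepatocytes, miR-122 was read 6, 6 and 1 times, under the filter. Most of the smooth muscle and fibroblast sum was miR-143 (13712, 15656 and 8206 CPM in T1, T2 and B1). The member of that list not called, miR-145, had only 14, 12 and 11 counts. Most of the striated muscle sum was miR-499 (547, 521 and 731 CPM).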

How the data were processed

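Small RNA libraries were made from vesicle RNA with the NEBNext small RNA set, per the labels' protocols. In the deposited count table, 919 rows pair a mature miRNA with a hairpin and give raw read counts and the CPM of the authors, computed over all rows. The deposited log2 values of the authors cover 459 rows and equal log2(CPM + 0.1) over those rows, as tested on the file. The submitters' processing notes name the build UMD3.1 and edgeR. The aligner, counter and miRBase release were not given in the sources used here. Of several hairpin rows for a mature miRNA the highest was kept, and CPM were recomputed. Totals were 5546771, 6251664 and 6708654 counts in T1, T2 and B1.

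B1 was tested against the technical pair with edgeR 4.0.16 (TMM, quasi-likelihood, R 4.3.3) on 367 miRNAs reaching 10 counts in any library. SEs came from the fold and its F value, and the code was tested on simulated data. DESeq2 1.42.0, other scalings, filters, hairpin counting and libraries left out were the alternatives. miR-375 and the lists were chosen with earlier results of these data known. Named miRNAs were miR-375, the 10 next in mean CPM, the endocrine and secretion list and the 5 nearest patterns. The parts of that rule that need sequences were not applied.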

Additional observations from a re-analysis of the deposited data

How the results depend on the processing

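With hairpin rows summed, and likewise in the authors' log2 table, the mean share of miR-375 was 29.9% in place of 39.3%. Each hairpin copy of the other miRNAs then adds to the total, and reads given to several rows are counted in each. The summed rows put the ratio to the next miRNA at 2.19 in place of 5.86. That ratio does not depend on the total, and it fell because the rows of the next miRNA itself are summed. miR-103 has 2 hairpin rows and miR-7 has 3, whereas miR-375 has 1. With 1 library left out the share lay between 37.0% and 39.9%, the ratio between 5.60 and 6.11, and the log2 fold change of miR-375 between 0.29 and 0.42 (a value with no test). The fold change of miR-375 was positive in all 8 fits. It passed at 0.34 in DESeq2 and at 0.32 in edgeR without a count filter, with adjusted p-values of 0.0055 and 0.028. In the other 6 fits, adjusted p ran from 0.14 to 0.48. The cause was not tested. The number of miRNAs called fell from 139 to 86 in DESeq2, with 288 tested, and to 70 with a mean of at least 100 CPM required, with 167 tested. In the endocrine and secretion list the called members changed with the setting, from 3 higher and 3 lower to 1 and 4 with library totals, 2 and 2 with TMM factors computed without miR-375, and 3 and 2 in DESeq2, where miR-375 was among them. No paired analysis was possible because the labels state no link between the biological library and either technical library. Depth limits the scarce list members and not miR-375.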
